A study of Homo sapiens with 12 samples.

Results

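The LC3 family and core autophagy genes were described in A549 cells, a human lung adenocarcinoma line, after silencing of GOLM1, which encodes a Golgi membrane protein. They are 10 genes of the 57773 in the deposited count table, picked by symbol: MAP1LC3A, MAP1LC3B, MAP1LC3C, GABARAP, GABARAPL1, GABARAPL2, SQSTM1, BECN1, ULK1 and WIPI1. MAP1LC3C and BECN1 drew attention to the set because they differed between the 2 GOLM1 siRNAs, so their values are given as a description with no test, and p-values are given for the other 8 genes. Cells were reverse transfected at 50 nM with siGOLM1-1, with siGOLM1-2 or with a control siRNA labelled non-targeting, and RNA was taken 72 h later. Each group had 4 libraries, labelled biological replicates, and all groups share the cell line, the transfection reagent and the dose. All 10 genes were among the 17532 that passed the filter on low counts, MAP1LC3C only through its level in the siGOLM1-1 libraries, since it was not among the genes tested when siGOLM1-2 and control were taken alone.

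Autophagy encloses cytoplasm in a double membrane that then fuses with the lysosome. The ULK1 kinase complex starts the process, a lipid kinase complex built on BECN1 marks the forming membrane with phosphatidylinositol 3-phosphate, and WIPI proteins read that mark. Proteins of the LC3 subfamily (MAP1LC3A, MAP1LC3B, MAP1LC3C) and of the GABARAP subfamily are then coupled to the lipid of the membrane, where cargo receptors such as SQSTM1 bind them. These steps are controlled largely at the protein level, and transcript levels do not measure how much autophagy a cell carries out.

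Libraries held between 41.6 M and 71.3 M counts, the deepest being siGOLM1-1 replicate 1. GOLM1 held 37.5 to 38.9 CPM (the usual depth-scaled count, with TMM factors between libraries) with siGOLM1-1, 44.6 to 53.4 CPM with siGOLM1-2 and 344.5 to 378.1 CPM in the control. Mitochondrial transcripts took 3.22% to 4.89%, 4.87% to 7.27% and 5.14% to 8.13% of the counts in the siGOLM1-1, siGOLM1-2 and control libraries. Epithelial transcripts such as KRT8 (1636 to 4438 CPM over all libraries) and ALDH1A1 (4556 to 10870 CPM) were abundant, and EPCAM was low (3.02 to 6.28 CPM). Of 11 measured markers of other cell types, CD3E and PTPRC stayed under 0.05 CPM in every library. The leukocyte marker CD14 held 6.7 to 15.2 CPM, and COL1A1 held 21.3 to 92.8 CPM. The 11 markers summed to 65.6 to 109.4 CPM with siGOLM1-1, 37.1 to 45.4 CPM with siGOLM1-2 and 40.1 to 79.9 CPM in the control. COL1A1 was the largest part, averaging 71.15, 27.3 and 49.3 CPM in the same groups. The part of these markers in the results was not tested. In bulk RNA, fewer cells of a type and less RNA per cell cannot be told apart. The control libraries fell into pairs. Replicates 1 and 2 were both below replicates 3 and 4 for MAP1LC3A, GABARAP, GABARAPL1, GABARAPL2, ULK1 and WIPI1, both above them for SQSTM1, and the pairs overlapped for MAP1LC3B, MAP1LC3C and BECN1. For the 8 tested genes, values against each pair are given below where a call depends on it.

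**Figure D1:**
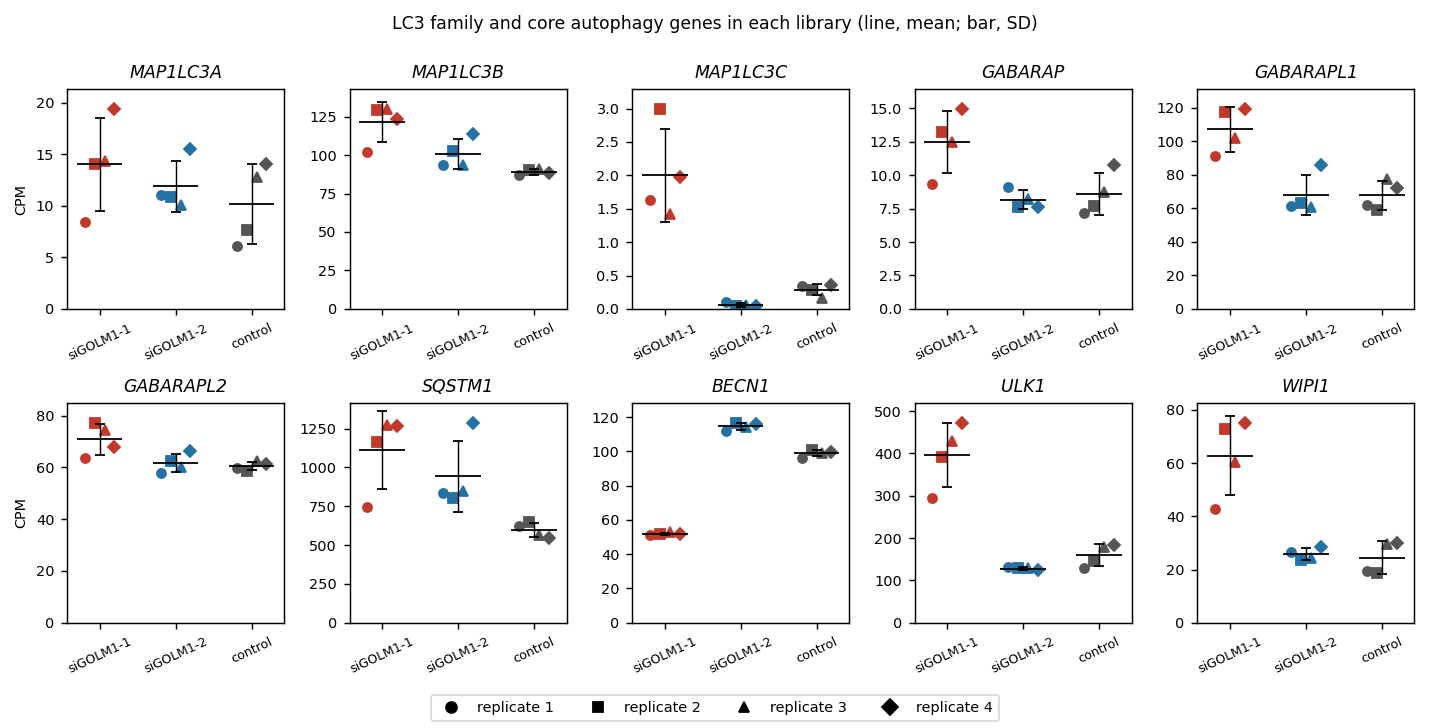
CPM of each of the 10 genes (vertical axis, linear from 0) in the 4 libraries of siGOLM1-1, siGOLM1-2 and the control; symbols mark the replicate, lines the mean and bars the SD. BECN1 sat at 51.1 to 52.8 CPM with siGOLM1-1, 111.9 to 116.6 CPM with siGOLM1-2 and 96.4 to 100.9 CPM in the control, with the narrowest spread relative to its mean of the genes shown.

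Levels of different genes were compared per kb of annotated exon. SQSTM1 was the most abundant of the 10 in every group, at 145 ± 32.6 CPM per kb with siGOLM1-1, 123 ± 30.1 with siGOLM1-2 and 77.9 ± 5.98 in the control (SD, n = 4 each). ULK1 came next with siGOLM1-1, at 52.1 ± 10.0 CPM per kb, and stood at 16.8 ± 0.367 with siGOLM1-2 and 20.9 ± 3.46 in the control. In the control, ULK1 (20.9), GABARAPL2 (20 ± 0.554), MAP1LC3B (16.8 ± 0.348), GABARAPL1 (16.5 ± 2.14) and BECN1 (15.4 ± 0.304 CPM per kb) followed SQSTM1. Of these neighbours, ULK1 and GABARAPL2 did not differ beyond their spread, nor did GABARAPL1 from MAP1LC3B or from BECN1. WIPI1 (7.19 ± 1.85), MAP1LC3A (5.77 ± 2.19) and GABARAP (3.80 ± 0.705 CPM per kb) came after a step wider than the spread, with WIPI1 and MAP1LC3A, and MAP1LC3A and GABARAP, within their spread of each other. With siGOLM1-1 the order after ULK1 was GABARAPL1 (26.2 ± 3.28), GABARAPL2 (23.4 ± 2.01), MAP1LC3B (22.8 ± 2.46), WIPI1 (18.5 ± 4.35), BECN1 (8.07 ± 0.117), MAP1LC3A (7.97 ± 2.55) and GABARAP (5.52 ± 1.03 CPM per kb), where, below GABARAPL1, only BECN1 was set apart from its upper neighbour by more than the spread. With siGOLM1-2 it was GABARAPL2 (20.3 ± 1.2), MAP1LC3B (19.0 ± 1.84), BECN1 (17.9 ± 0.321), ULK1, GABARAPL1 (16.6 ± 2.91), WIPI1 (7.55 ± 0.676), MAP1LC3A (6.74 ± 1.39) and GABARAP (3.60 ± 0.306 CPM per kb), with steps wider than the spread before ULK1, before WIPI1 and before GABARAP. MAP1LC3C was the least abundant in every group, at 1.70 ± 0.590 CPM per kb with siGOLM1-1, 0.0529 ± 0.0226 with siGOLM1-2 and 0.245 ± 0.0730 in the control. The order and steps between these extremes depend on the length used. With the longest transcript in place of all exons, MAP1LC3B (28.9 ± 0.599 CPM per kb) stood above GABARAPL1 (21 ± 2.72) in the control by more than the spread.

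The 6 genes of the LC3 and GABARAP subfamilies encode the proteins that are coupled to the autophagosome membrane. Their levels summed to 87.6 ± 10.3 CPM per kb with siGOLM1-1, 66.3 ± 6.95 with siGOLM1-2 and 63.1 ± 5.38 in the control. Each siGOLM1-1 library (72.7 to 94.8) was above each control library (58.1 to 68.0), while the siGOLM1-2 libraries (61.6 to 76.5) overlapped with both. GABARAPL1, GABARAPL2 and MAP1LC3B made up most of the sum in every library. GABARAPL1 held 30.0% ± 1.30 of it with siGOLM1-1, 24.9% ± 1.66 with siGOLM1-2 and 26.2% ± 1.39 in the control. GABARAPL2 held 26.8% ± 2.16, 30.8% ± 1.54 and 31.8% ± 1.98 in the same groups. MAP1LC3B held 26.1% ± 1.19, 28.6% ± 0.770 and 26.7% ± 2.11. MAP1LC3C held 1.92% ± 0.551 with siGOLM1-1, 0.0820% ± 0.0399 with siGOLM1-2 and 0.394% ± 0.126 in the control. These shares depend on the length used, and with the longest transcript in place of all exons MAP1LC3B was the most abundant of the family in all 3 groups. They also depend on how overlapping genes were counted. GABARAP shares 2344 bases of its span with AC120057.2 on the same strand, and reads that fit both may not have been counted. The level, rank and share of GABARAP, and the family sum, may thus be too low.

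**Figure D2:**
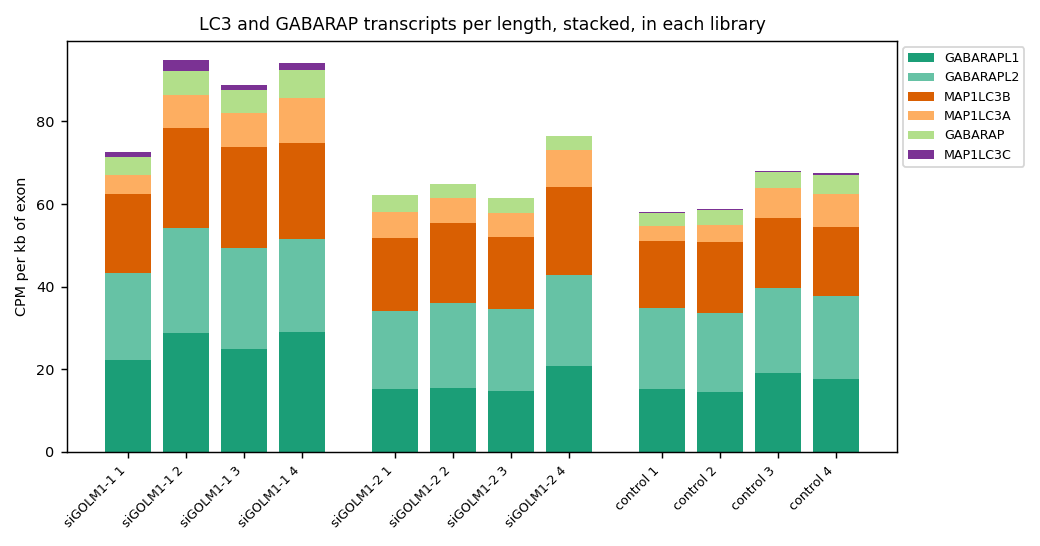
CPM per kb of exon of the LC3 and GABARAP genes, stacked for each library (vertical axis, linear from 0). The siGOLM1-1 bars reach 72.7 to 94.8, the siGOLM1-2 bars 61.6 to 76.5 and the control bars 58.1 to 68.0, and MAP1LC3C is a thin band seen mainly with siGOLM1-1.

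Apart from MAP1LC3C and BECN1, 7 of the 8 genes were called higher with siGOLM1-1 and 1 with siGOLM1-2, relative to control. ULK1 (log2 fold change 1.32) and WIPI1 (1.36) had the largest increases with siGOLM1-1, and SQSTM1 (0.66) was the only one called higher with siGOLM1-2. A gene was called where its Benjamini-Hochberg adjusted p from edgeR's quasi-likelihood test, over all genes tested, was under 0.05. Of the 8 tested genes, 7 were called higher and 0 lower with siGOLM1-1 against control, where 47.5% of all genes tested were called, 23.7% higher and 23.8% lower. Their median log2 fold change was 0.60, against -0.01 over all genes tested. With siGOLM1-2 against control 1 of 8 was called, higher, where 45% of all genes tested were called, 21.8% higher and 23.2% lower, and the median was 0.05 against -0.01. For siGOLM1-1 against siGOLM1-2, 6 were called higher and 0 lower, where 54.4% of all genes tested were called, 27.9% higher and 26.5% lower, and the median was 0.44 against 0.02. The set was put together with the difference between the siRNAs in view, so these counts describe it and do not test it. The groups did not overlap for 6 of the 8 with siGOLM1-1 against control, as for 41% of all genes tested (20.6% higher, 20.4% lower). This held for 2 of the 8 with siGOLM1-2 against control (45.9% of all, 22.6% higher, 23.3% lower) and for 4 between the siRNAs (48.4% of all, 24.2% higher, 24.2% lower). The authors' deposited tables gave the same calls for the 8 genes in both comparisons with the control, and their log2 fold changes for the 10 genes were within 0.025 of those given here.

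**Figure D3:**
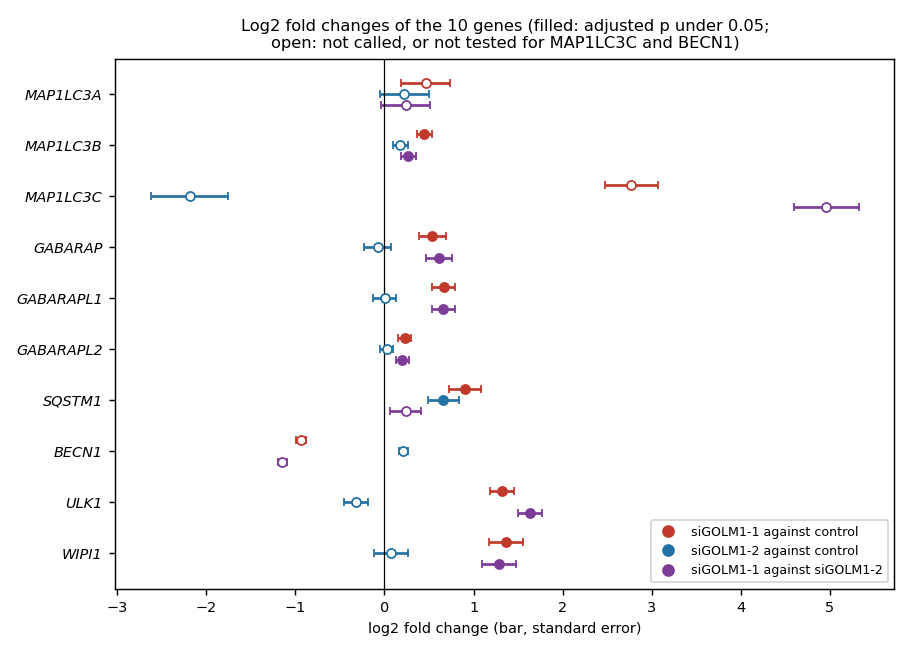
Log2 fold changes (horizontal axis) of the 10 genes with their standard errors in the 3 comparisons; filled points passed an adjusted p of 0.05, and MAP1LC3C and BECN1 are open because they were not tested. ULK1 and WIPI1 lie at 1.32 and 1.36 for siGOLM1-1 against control, while for siGOLM1-2 against control SQSTM1 at 0.66 is the one filled point.

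MAP1LC3C, a member of the LC3 subfamily known from human cells for a part in autophagy of invading bacteria, was the gene with the widest range. It had 1.64, 2.99, 1.42 and 1.97 CPM in siGOLM1-1 replicates 1 to 4 and 0.101, 0.0508, 0.0587 and 0.0398 CPM with siGOLM1-2, against 0.340, 0.289, 0.169 and 0.362 CPM in the control. The groups did not overlap, with siGOLM1-1 above the control and siGOLM1-2 below it. On the log2 scale the fold change was 2.77 (SE 0.30) for siGOLM1-1 against control, -2.19 (SE 0.44) for siGOLM1-2 against control and 4.96 (SE 0.37) for siGOLM1-1 against siGOLM1-2. These rest on few reads, 437 in the siGOLM1-1 libraries together, 13 with siGOLM1-2 and 55 in the control. All 4 siGOLM1-1 libraries, 0 siGOLM1-2 libraries and 3 control libraries were above the level the filter asks for.

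BECN1, the scaffold of the class III lipid kinase complexes, lay below the control with siGOLM1-1 and above it with siGOLM1-2. It had 51.1, 51.6, 52.8 and 51.6 CPM with siGOLM1-1 and 111.9, 116.6, 114.3 and 115.8 CPM with siGOLM1-2, against 96.4, 100.9, 99.0 and 99.8 CPM in the control. Again the groups did not overlap, and libraries of a group were close to each other. BECN1's log2 fold change was -0.94 (SE 0.05) for siGOLM1-1 against control, 0.21 (SE 0.05) for siGOLM1-2 against control and -1.15 (SE 0.05) for siGOLM1-1 against siGOLM1-2. With either pair of control libraries as the only controls, the siGOLM1-1 value was -0.93, and leaving out any 1 library kept it between -0.95 and -0.91. These ranges reuse the libraries that led to the choice of BECN1, so they describe its spread and do not test its difference. In GENCODE release 29 BECN1 overlaps PSME3 and CNTD1 on the opposite strand, and whether reads were counted by strand is not given in the sources used here. BECN1P1, taken by its symbol as a copy of BECN1, had 0 counts in every library.

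The sequences before the start sites of both genes are shown because the genes lay on opposite sides of the control under each siRNA. They are the 250 bases before the RefSeq start, from build GRCh38.p14, 5′ to 3′ in the direction of the gene, for MAP1LC3C at chr1:241999099-241999348, minus strand, and for BECN1 at chr17:42823880-42824129, minus strand. The counts were made on hg19, so these positions were not used with them.
MAP1LC3C: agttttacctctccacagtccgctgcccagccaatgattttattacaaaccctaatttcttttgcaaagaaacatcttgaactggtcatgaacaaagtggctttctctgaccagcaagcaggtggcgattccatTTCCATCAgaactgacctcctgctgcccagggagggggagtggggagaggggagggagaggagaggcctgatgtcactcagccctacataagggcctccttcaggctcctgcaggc
BECN1: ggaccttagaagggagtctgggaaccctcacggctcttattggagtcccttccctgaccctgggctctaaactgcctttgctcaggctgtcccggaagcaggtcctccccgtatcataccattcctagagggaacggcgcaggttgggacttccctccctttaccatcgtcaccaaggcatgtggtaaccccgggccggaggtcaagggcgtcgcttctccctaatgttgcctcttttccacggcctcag
Capitals mark matches, on either strand, to 6 motifs chosen after the values were seen: CACGTG, the core of the CLEAR element of lysosomal genes; TGACNNNGC, the antioxidant response element; TGACTCA, the AP-1 site; GTAAACA, a FOXO site; TGATGNAA, the ATF4 composite element; and GGGCGG, the GC box, added after the sequences were seen. The MAP1LC3C window held 1 match, TTCCATCA as read along the gene, to TGATGNAA, 116 to 109 bases before the start on the opposite strand. That motif was in 3.14% of 35116 windows of the same length. The BECN1 window held none of the 6. In the GENCODE annotation used for the overlaps, BECN1 spans 42810134 to 42833350 on the minus strand, so this window lies inside the gene. The sequence before that further upstream start was not searched. The lack of matches thus holds only for the sequence before the RefSeq start.

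ULK1, the kinase that starts autophagosome formation, rose with siGOLM1-1. It had 293.8, 391.7, 429.6 and 472.0 CPM with siGOLM1-1 and 131.0, 128.5, 128.1 and 124.3 CPM with siGOLM1-2, against 129.2, 145.3, 179.5 and 183.2 CPM in the control. Every siGOLM1-1 library was above every other library, and the siGOLM1-2 libraries overlapped with the control. ULK1's log2 fold change was 1.32 (SE 0.14, adjusted p = 4.6e-06) for siGOLM1-1 against control and 1.63 (SE 0.14, adjusted p = 4.26e-07) for siGOLM1-1 against siGOLM1-2. For siGOLM1-2 against control it was -0.32 (SE 0.14) and not called (adjusted p = 0.0723). Against control replicates 3 and 4 alone the siGOLM1-2 value was -0.49 and called (adjusted p = 0.0145), and against replicates 1 and 2 alone it was -0.10 (adjusted p = 0.615). Leaving out control replicate 1 also gave a call at -0.41 (adjusted p = 0.0252), as did leaving out siGOLM1-1 replicate 1, which changes the shared estimate of spread (-0.32, adjusted p = 0.0223).

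WIPI1, which binds the lipid mark on the forming membrane, also rose with siGOLM1-1. It had 42.9, 72.9, 60.4 and 75.1 CPM with siGOLM1-1 and 26.5, 23.6, 24.2 and 28.6 CPM with siGOLM1-2, against 19.5, 18.5, 29.6 and 30.1 CPM in the control. The siGOLM1-1 libraries did not overlap with any other, and the siGOLM1-2 libraries lay within the range of the control. WIPI1's log2 fold change was 1.36 (SE 0.19, adjusted p = 7.72e-05) for siGOLM1-1 against control, 0.07 (SE 0.19, adjusted p = 0.79) for siGOLM1-2 against control and 1.29 (SE 0.19, adjusted p = 8.23e-05) for siGOLM1-1 against siGOLM1-2. With replicates 1 and 2 as the only controls the siGOLM1-1 value was 1.72, and with replicates 3 and 4 it was 1.08, called both times.

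ULK1 and WIPI1 rose together with siGOLM1-1 by the largest folds of the 8 tested genes, and their windows are shown from the same source and build, for ULK1 at chr12:131894372-131894621, plus strand, and for WIPI1 at chr17:68457497-68457746, minus strand.
ULK1: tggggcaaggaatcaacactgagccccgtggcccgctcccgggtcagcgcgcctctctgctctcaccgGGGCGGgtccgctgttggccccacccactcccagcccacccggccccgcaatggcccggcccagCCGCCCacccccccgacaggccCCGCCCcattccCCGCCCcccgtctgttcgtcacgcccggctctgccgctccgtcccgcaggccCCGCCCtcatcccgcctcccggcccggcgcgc
WIPI1: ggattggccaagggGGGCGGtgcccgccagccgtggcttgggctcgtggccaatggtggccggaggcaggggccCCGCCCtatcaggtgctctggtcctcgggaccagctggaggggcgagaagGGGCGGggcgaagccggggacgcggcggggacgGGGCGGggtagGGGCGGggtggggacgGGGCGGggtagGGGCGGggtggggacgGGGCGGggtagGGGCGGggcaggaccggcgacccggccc
The capitals here are matches to GGGCGG or its reverse complement, 5 in the ULK1 window and 9 in the WIPI1 window. Of the 10 genes, 9 had a window in the RefSeq table and 7 of them held GGGCGG, against 42.6% of all windows. GGGCGG was added after these sequences were seen, so this count describes them and cannot test an excess. The count is also of genes, while the share is of single windows. CACGTG was in 0 of the 9 (6.34% of all windows), TGACTCA in 0 (4.2%) and GTAAACA in 0 (2.98%). TGACNNNGC was in 1, that of MAP1LC3B (10.9% of all windows). SQSTM1 had 3 windows, 1 for each of its listed starts, and all were searched. These counts hold for RefSeq starts only. The windows of MAP1LC3B, GABARAP, GABARAPL1 and BECN1 lie inside the GENCODE spans of their genes. So do the SQSTM1 windows other than the most upstream one, and those of GABARAPL2 and WIPI1 reach into their genes. Sequence before the further upstream starts of MAP1LC3B, GABARAP, GABARAPL1 and BECN1 was not searched.

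SQSTM1, the receptor that brings ubiquitinated cargo to LC3 proteins and also binds the NRF2 inhibitor KEAP1, was the only one of the 8 tested genes called higher with each siRNA. It had 747, 1165, 1273 and 1268 CPM with siGOLM1-1 and 832.5, 803.3, 849 and 1287 CPM with siGOLM1-2, against 619.8, 647.8, 568.1 and 548.5 CPM in the control. Every knockdown library was above every control library, and the siRNAs overlapped with each other. SQSTM1's log2 fold change was 0.90 (SE 0.18, adjusted p = 0.000937) with siGOLM1-1 and 0.66 (SE 0.18, adjusted p = 0.00773) with siGOLM1-2. Both comparisons share the control libraries. The siGOLM1-2 call ended against control replicates 1 and 2 alone (0.57, adjusted p = 0.0755), and without siGOLM1-2 replicate 4 the value was 0.47 (adjusted p = 0.0218). For siGOLM1-1 against siGOLM1-2 it was 0.24 (SE 0.18, adjusted p = 0.266), and it was called without siGOLM1-1 replicate 1 (0.39, adjusted p = 0.0319) or without siGOLM1-2 replicate 4 (0.43, adjusted p = 0.0297).

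Of the GABARAP subfamily, whose proteins act mainly late in autophagosome formation, all 3 genes were called higher with siGOLM1-1 and none with siGOLM1-2. Of all genes tested, 23.7% and 21.8% were called higher with siGOLM1-1 and siGOLM1-2. GABARAPL1 had 90.9, 117.1, 101.7 and 119.1 CPM with siGOLM1-1 and 61.6, 63.2, 60.6 and 85.5 CPM with siGOLM1-2, against 61.8, 58.9, 77.6 and 72.1 CPM in the control. The siGOLM1-1 libraries were above all others, and siGOLM1-2 replicate 4 stood above the rest of its group. The log2 fold change of GABARAPL1 was 0.67 (SE 0.13, adjusted p = 0.00076) for siGOLM1-1 against control, 0.003 (SE 0.13, adjusted p = 0.989) for siGOLM1-2 against control and 0.66 (SE 0.13, adjusted p = 0.000606) for siGOLM1-1 against siGOLM1-2.

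GABARAP, after which the subfamily is named, had 9.37, 13.2, 12.5 and 15.0 CPM with siGOLM1-1 and 9.12, 7.65, 8.24 and 7.66 CPM with siGOLM1-2, against 7.17, 7.72, 8.72 and 10.8 CPM in the control. The lowest siGOLM1-1 library lay below the highest control library, and all siGOLM1-1 libraries were above all siGOLM1-2 libraries. Its log2 fold change was 0.54 (SE 0.15, adjusted p = 0.00947) with siGOLM1-1 against control, a call that ended against control replicates 3 and 4 alone (0.36, adjusted p = 0.109). It was -0.08 (SE 0.15, adjusted p = 0.713) with siGOLM1-2 against control and 0.61 (SE 0.15, adjusted p = 0.00346) for siGOLM1-1 against siGOLM1-2. In GENCODE release 29 GABARAP shares 2344 bases of its span with a protein-coding gene on the same strand, AC120057.2, and reads that fit both may not have been counted for it.

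GABARAPL2 had 63.8, 77.2, 74.4 and 68.0 CPM with siGOLM1-1 and 58.0, 62.4, 60.1 and 66.5 CPM with siGOLM1-2, against 59.9, 58.7, 62.6 and 61.2 CPM in the control. The siGOLM1-1 libraries were above the control, by a small margin for replicate 1. The log2 fold change was 0.23 (SE 0.07, adjusted p = 0.0192) for siGOLM1-1 against control, 0.03 (SE 0.07, adjusted p = 0.787) for siGOLM1-2 against control and 0.20 (SE 0.07, adjusted p = 0.0308) for siGOLM1-1 against siGOLM1-2. The call against control ended against control replicates 3 and 4 alone (0.20, adjusted p = 0.0995), without siGOLM1-1 replicate 2 (0.18, adjusted p = 0.0609) and without siGOLM1-1 replicate 3 (0.20, adjusted p = 0.0529). The call between the siRNAs ended under 8 of 21 alternatives, and all 21 together gave 0.07 to 0.25 and adjusted p from 0.00834 to 0.391. Of the 8, 5 left out 1 library, in turn siGOLM1-1 replicates 2 and 3 (0.16 and 0.18) and siGOLM1-2 replicates 1, 2 and 3 (0.17, 0.20 and 0.19).

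MAP1LC3B, whose protein is the usual marker of autophagosomes, had 102.1, 129.4, 129.9 and 123.7 CPM with siGOLM1-1 and 93.4, 102.7, 93.2 and 113.9 CPM with siGOLM1-2, against 86.7, 90.2, 90.8 and 88.4 CPM in the control. All knockdown libraries were above all control libraries. The log2 fold change was 0.45 (SE 0.09, adjusted p = 0.000803) for siGOLM1-1 against control and 0.18 (SE 0.09) and not called (adjusted p = 0.107) for siGOLM1-2 against control. Between the siRNAs it was 0.27 (SE 0.09, adjusted p = 0.0177), and this call ended without siGOLM1-1 replicate 3 (0.24, adjusted p = 0.0522), siGOLM1-2 replicate 1 (0.23, adjusted p = 0.0589) or siGOLM1-2 replicate 3 (0.23, adjusted p = 0.0576). MAP1LC3B2, a near-identical copy whose reads cannot be told apart safely from those of MAP1LC3B, held only 81 reads with siGOLM1-1, 56 with siGOLM1-2 and 35 in the control.

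MAP1LC3A, the remaining LC3 gene, was not called in any comparison. It had 8.38, 14.0, 14.3 and 19.4 CPM with siGOLM1-1 and 11.04, 10.85, 10.12 and 15.51 CPM with siGOLM1-2, against 6.14, 7.65, 12.8 and 14.1 CPM in the control. The libraries of all 3 groups overlapped, and the gap between the control pairs was wider than the differences between group means. Its log2 fold change was 0.46 (SE 0.28, adjusted p = 0.192) with siGOLM1-1 against control, 0.22 (SE 0.28, adjusted p = 0.542) with siGOLM1-2 against control and 0.24 (SE 0.28, adjusted p = 0.492) for siGOLM1-1 against siGOLM1-2. Against control replicates 1 and 2 alone it was called with siGOLM1-1 (1.02, adjusted p = 0.0143) and with siGOLM1-2 (0.79, adjusted p = 0.0496). Against replicates 3 and 4 alone it was at 0.07 (adjusted p = 0.861) and -0.16 (adjusted p = 0.658).

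Single libraries stood low or high for many of the genes. Within siGOLM1-1, replicate 1 was the lowest library for 9 of the 10 genes, and within siGOLM1-2, replicate 4 was the highest for 6. Replicate 4 was also the highest for 5 genes with siGOLM1-1 and for 5 in the control, where replicate 1 was the lowest for 5. With siGOLM1-2, replicate 1 was the lowest for 2 and the highest for 3. Without siGOLM1-1 replicate 1 the values against control were 1.44 for ULK1, 1.51 for WIPI1, 1.05 for SQSTM1 and 0.74 for GABARAPL1, and the number of the 8 genes called stayed at 7. Of all genes tested, 8647 were called without that library and 8333 with it. With control replicates 1 and 2 as the only controls 8 of the 8 genes were called with siGOLM1-1, where 39.9% of all genes tested were called. With replicates 3 and 4 it was 5 of the 8, where 40.4% of all genes tested were called.

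**Figure D4:**
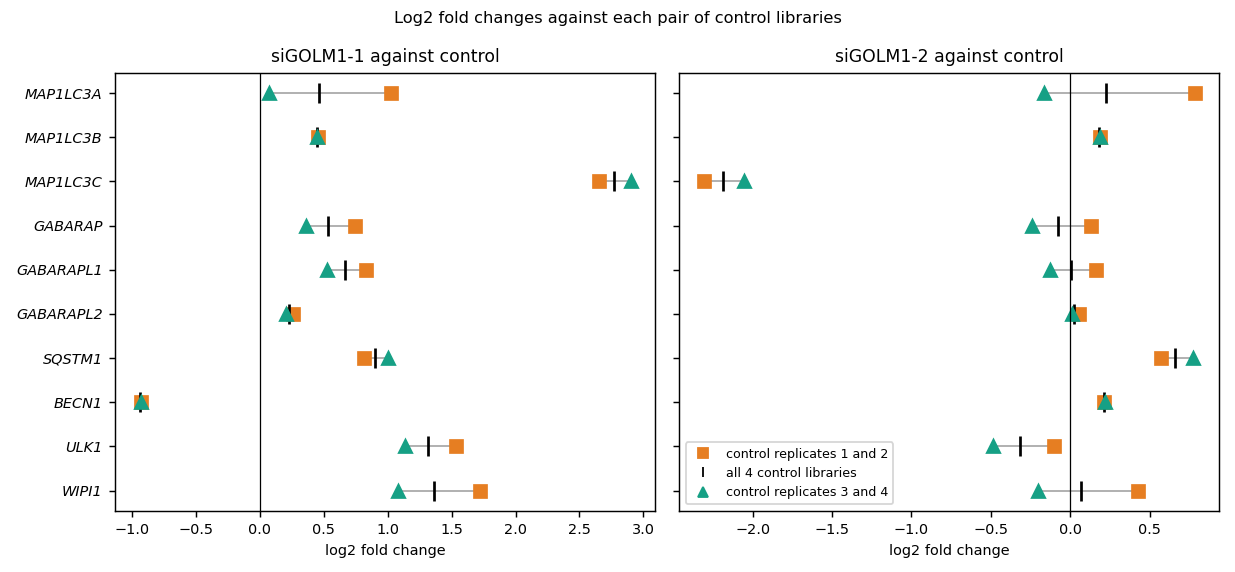
Log2 fold changes (horizontal axis) of the 10 genes for each siRNA against control replicates 1 and 2 (squares), all 4 control libraries (bars) and control replicates 3 and 4 (triangles). MAP1LC3B hardly moved with the choice of controls, nor did BECN1, which was not tested. MAP1LC3A moved between 0.07 and 1.02 with siGOLM1-1 and between -0.16 and 0.79 with siGOLM1-2.

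The other genes of the pathway were taken from 7 lists by role, of which 75 genes were in the table and all were tested, and which hold none of the 10. With siGOLM1-1 against control, 21 were called higher, 13 lower and 41 were not called, or 45.3% called against 47.5% of all genes tested, with a median of 0.03. With siGOLM1-2 against control, 19 were higher, 14 lower and 42 not called, or 44% against 45%, with a median of 0.06. Between the siRNAs, 21 were higher, 17 lower and 37 not called, or 50.7% against 54.4%. The share called was thus near that of all genes in each comparison. With siGOLM1-1, 27 of the 75 were called when control replicates 1 and 2 were the only controls and 30 with replicates 3 and 4. With siGOLM1-2 the numbers were 31 (36.1% of all genes tested were called) and 24 (39.1%). Of the 28 calls named below by list and siRNA, 21 were kept with either pair of controls, and the other 7 are pointed out.

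Of 4 partners and relatives of ULK1, 3 were called higher and 0 lower with siGOLM1-1, and 1 higher and 1 lower with siGOLM1-2. Of all genes tested, 23.7% were called higher with siGOLM1-1, and 21.8% higher and 23.2% lower with siGOLM1-2. With siGOLM1-1, RB1CC1, the scaffold of the kinase complex, was at 0.66 (SE 0.11, adjusted p = 0.000268) and ATG13, its regulatory subunit, at 0.53 (SE 0.09, adjusted p = 0.000233). With siGOLM1-2, C12orf44, now named ATG101, was at 0.27 (adjusted p = 0.0499) and ULK2, the second kinase of the family, at -0.22 (adjusted p = 0.032). The C12orf44 call ended with either pair of controls (0.33, adjusted p = 0.0768 with replicates 1 and 2, and 0.23, adjusted p = 0.194 with replicates 3 and 4), and the ULK2 call ended with replicates 1 and 2 (-0.10, adjusted p = 0.379). With siGOLM1-1, C12orf44 was at 0.35 (adjusted p = 0.0147) and ULK2 at 0.09 (adjusted p = 0.349).

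Of 9 genes in the list for the class III lipid kinase complexes of BECN1, 3 were called higher and 1 lower with siGOLM1-1, and 2 higher and 1 lower with siGOLM1-2. The list also holds TMEM41B and VMP1, which are not subunits of these complexes. That is 44.4% and 33.3% called, against 47.5% and 45% of all genes tested. PIK3R4, the regulatory subunit of the lipid kinase, was lower with each siRNA, at -0.44 (SE 0.10, adjusted p = 0.00185) with siGOLM1-1 and -0.86 (SE 0.10, adjusted p = 1.03e-05) with siGOLM1-2. It averaged 28.5 CPM with siGOLM1-1, 21.2 CPM with siGOLM1-2 and 38.6 CPM in the control. NRBF2, a further subunit, was at 0.51 (SE 0.09, adjusted p = 0.000387) with siGOLM1-1, and UVRAG, which directs the complex to endosomes, at 0.28 (SE 0.08, adjusted p = 0.0139) with siGOLM1-2, a call that ended with control replicates 3 and 4 (0.24, adjusted p = 0.0836). NRBF2 was also called with siGOLM1-2 (0.27, adjusted p = 0.0255), and UVRAG with siGOLM1-1 (0.28, adjusted p = 0.0127). The catalytic subunit PIK3C3 and the targeting subunit ATG14, named after their values were seen because they bind BECN1 in one complex, were not called with siGOLM1-1 (-0.10, adjusted p = 0.32, and 0.25, adjusted p = 0.066) or with siGOLM1-2 (-0.14, adjusted p = 0.186, and 0.12, adjusted p = 0.367).

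Among 7 genes of ATG9 vesicles, lipid transfer and WIPI proteins, 3 were called higher and 1 lower with siGOLM1-1, and 2 higher and 0 lower with siGOLM1-2. That is 57.1% and 28.6% called, against 47.5% and 45% of all genes tested. For the 11 genes that couple LC3 to lipid it was 54.5% and 45.5%. WIPI2, a relative of WIPI1 that recruits the conjugation machinery, was at 0.36 (SE 0.06, adjusted p = 0.000253) with siGOLM1-1, and ATG9A, the membrane protein of the seed vesicles, at -0.35 (SE 0.08, adjusted p = 0.00278), a call that ended with control replicates 1 and 2 (-0.22, adjusted p = 0.0543). With siGOLM1-2 the lipid transfer gene ATG2A was at 0.48 (SE 0.08, adjusted p = 0.000425) and WDR45, a WIPI relative, at 0.36 (adjusted p = 0.0443). The WDR45 call ended with either pair of controls (0.46, adjusted p = 0.0545 with replicates 1 and 2, and 0.28, adjusted p = 0.214 with replicates 3 and 4), and ATG2A was also called with siGOLM1-1 (0.28, adjusted p = 0.0143). Of 11 genes that couple LC3 to lipid, 2 were higher and 4 lower with siGOLM1-1, with ATG16L2, a relative of the conjugation scaffold ATG16L1, at 0.89 (SE 0.18, adjusted p = 0.00113) and the protease ATG4D at -0.63 (SE 0.11, adjusted p = 0.000424). With siGOLM1-2, 2 were higher and 3 lower, with the protease ATG4A at 0.92 (SE 0.09, adjusted p = 3.56e-06) and the conjugating enzyme ATG10 at -0.59 (SE 0.09, adjusted p = 0.000106). ATG10 was called in the other direction with siGOLM1-1, at 0.33 (SE 0.09, adjusted p = 0.00596).

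Of 15 other cargo receptors, 5 were higher and 3 lower with siGOLM1-1, and 4 higher and 4 lower with siGOLM1-2. That is 53.3% called with each siRNA, against 47.5% and 45% of all genes tested. OPTN, a receptor for damaged mitochondria and bacteria, was at 0.65 (SE 0.16, adjusted p = 0.00502) with siGOLM1-1, and TEX264, a receptor of the endoplasmic reticulum, at -0.43 (SE 0.07, adjusted p = 0.000318). The OPTN call ended with control replicates 3 and 4 (0.49, adjusted p = 0.0586). With siGOLM1-2 the mitophagy receptor BNIP3L was at -0.75 (SE 0.11, adjusted p = 0.000146) and RTN3, a receptor of endoplasmic reticulum tubules, at -0.58 (SE 0.08, adjusted p = 4.57e-05). RTN3 was called in the other direction with siGOLM1-1, at 0.23 (SE 0.08, adjusted p = 0.0242). Among 12 genes of fusion with lysosomes, 3 were higher and 3 lower with siGOLM1-1, and 5 higher and 1 lower with siGOLM1-2, or 50% called with each siRNA. SNAP29 and STX17, SNARE proteins of the same fusion complex, were at -0.85 (SE 0.07, adjusted p = 5.21e-07) and -0.75 (SE 0.11, adjusted p = 6.58e-05) with siGOLM1-1. With siGOLM1-2, SNAP29 was called in the other direction, at 0.27 (SE 0.07, adjusted p = 0.00685), and STX17 was at -0.25 and not called (adjusted p = 0.0698). VAMP8, the lysosomal SNARE that pairs with them, was at 0.88 (SE 0.20, adjusted p = 0.00305) with siGOLM1-2, and the adaptor PLEKHM1 at 0.63 (SE 0.11, adjusted p = 0.000543).

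Upstream regulators had 2 of 17 genes higher and 1 lower with siGOLM1-1, and 3 higher and 4 lower with siGOLM1-2. That is 17.6% and 41.2% called, against 47.5% and 45% of all genes tested. RRAGC, a GTPase of amino acid sensing, was at 0.91 (SE 0.13, adjusted p = 5.35e-05) and FLCN, its activator, at 0.50 (SE 0.09, adjusted p = 0.000631) with siGOLM1-1. With siGOLM1-2 the related GTPase RRAGD was at 0.93 (SE 0.30, adjusted p = 0.0226) and FOXO1, a transcription factor, at -0.72 (SE 0.16, adjusted p = 0.00206). RRAGC was called higher there too (0.43, adjusted p = 0.013). RRAGD had 4.18 and 3.87 CPM in control replicates 1 and 2 but 8.09 and 7.93 CPM in replicates 3 and 4; its value was 1.51 (adjusted p = 0.00417) with the first pair as controls and 0.54, not called (adjusted p = 0.188), with the other. FOXO1 was at -0.40 (adjusted p = 0.0441) with replicates 1 and 2. Of the transcription factors of lysosome and autophagy genes, TFEB (0.08, adjusted p = 0.687), TFE3 (-0.10, adjusted p = 0.333) and MITF (0.08, adjusted p = 0.694) were not called with siGOLM1-1. With siGOLM1-2, TFE3 was at 0.35 (SE 0.08, adjusted p = 0.00252), and TFEB (0.20, adjusted p = 0.28) and MITF (0.02, adjusted p = 0.943) were not called.

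**Figure D5:**
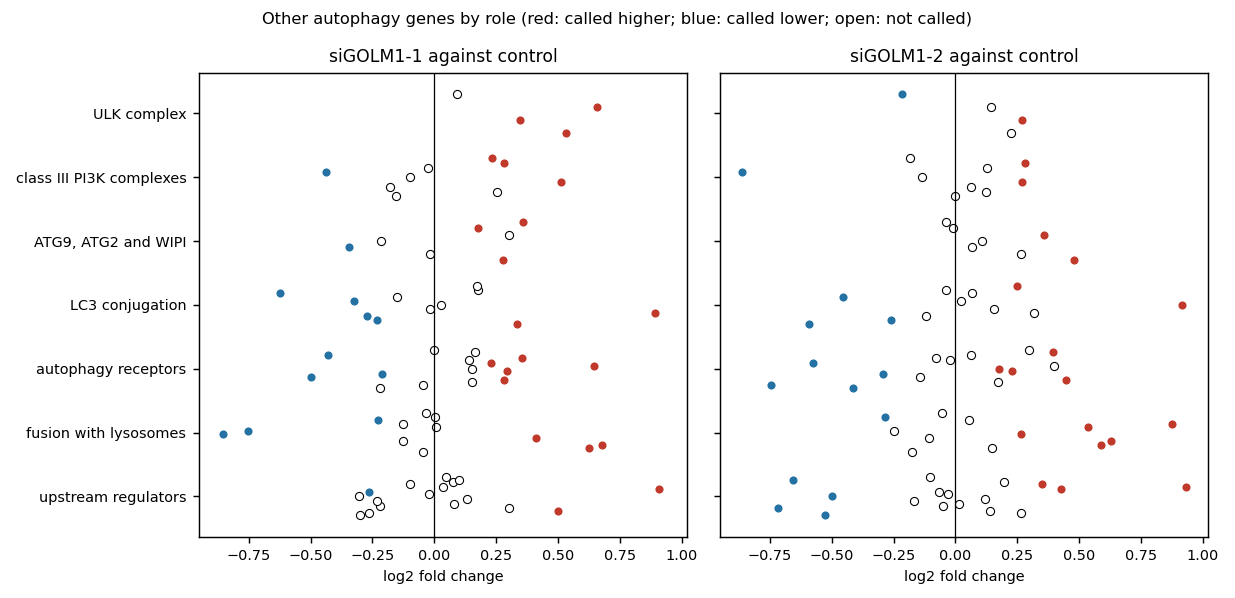
Log2 fold changes (horizontal axis) of the 75 other autophagy genes by role (rows) for each siRNA against control; red points were called higher, blue points lower and open points not called. Called genes lie on both sides of 0 in most rows, from -0.85 for SNAP29 to 0.91 for RRAGC with siGOLM1-1.

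The genes whose pattern over the 12 libraries was most like that of MAP1LC3C and BECN1 were found by the root mean square difference of log2 CPM, each gene centred on its own mean. For MAP1LC3C the nearest was HMOX1, heme oxygenase, at 0.51, with 1191 CPM on average with siGOLM1-1, 59.6 CPM with siGOLM1-2 and 284.9 CPM in the control. AC116609.2 (0.71) and AC079466.1 (0.74) followed, both at low levels. AC116609.2 averaged 0.499, 0.0249 and 0.0778 CPM and AC079466.1 4.89, 0.132 and 0.764 CPM with siGOLM1-1, with siGOLM1-2 and in the control. MAP1LC3C itself had 2 to 5 reads per siGOLM1-2 library, so its log2 distances rest in part on very low counts. For BECN1 the nearest were ARMC7 at 0.045, LINC00963 at 0.065 and TMEM127 at 0.069. TMEM127 averaged 47.2 CPM with siGOLM1-1, 112.1 CPM with siGOLM1-2 and 95.2 CPM in the control, and ARMC7 averaged 10.4, 23.0 and 19.4 CPM in the same groups. These distances describe the 12 libraries and share their scaling.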

How the data were processed

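RNA from 12 A549 libraries was made into strand-specific mRNA libraries and read from both ends, per the labels' protocols. The authors deposited raw counts per gene for 57773 genes, aligned with STAR 2.7.3 to hg19 after bcl2fastq 2.20, per the submitters' processing notes; the counter, annotation and strand setting are not given in the sources used here. In GENCODE release 29, 8 of the 10 genes overlap another gene, 5 of them a protein-coding one, so their counts may miss or share reads. The authors' deposited result tables, made with DESeq2 1.24.0 per those notes, give a log2 fold change and an adjusted p-value per gene, and were used only to compare calls.

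Counts were fitted here with edgeR 4.0.16 in R 4.3.3: filterByExpr by group (minimum count 10, leaving 17532 genes), TMM factors, 1 robust quasi-likelihood fit over all 12 libraries with 9 residual degrees of freedom, and Benjamini-Hochberg adjustment over all genes tested. Calls are at an adjusted p under 0.05. The code was tested on simulated data. CPM values were computed from the counts over the TMM-scaled library totals. Exon lengths came from GENCODE release 29 on GRCh38, which is not the build of the counts, and are approximate. Alternatives were DESeq2 1.42.0, other scalings and filters, pairwise fits, a replicate block, control subsets and leaving out each library.

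The genes, lists and tests were chosen with earlier results of these data known. Beside the 10 genes, genes named were GOLM1, copies of the 10, the 3 nearest patterns of MAP1LC3C and of BECN1, TFEB, TFE3 and MITF, and PIK3C3 and ATG14, which were added after their values were seen. From each list and siRNA, the 2 called genes with the largest change were named, among those whose groups did not overlap and whose higher mean reached 5 CPM. Pairing by replicate number was left out of the main fit, because same-numbered libraries did not correlate throughout. This measure cannot decide whether libraries were paired. P-values measure the spread between libraries labelled biological replicates.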

Additional observations from a re-analysis of the deposited data

Results flagged for a closer look

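The siGOLM1-2 replicate 4 library stood apart from the other siGOLM1-2 libraries for 3 genes. It held 15.5 CPM of MAP1LC3A, where the others held 10.1 to 11 CPM, 85.5 CPM of GABARAPL1 (others 60.6 to 63.2 CPM) and 1290 CPM of SQSTM1 (others 803 to 849 CPM). In 30 such groups of 4 libraries, chance flags about 1 in 20, and here 3 were flagged, all in the same library. The siRNAs moved MAP1LC3C and BECN1 in opposite directions, with every library on its side of the control: siGOLM1-1 against siGOLM1-2 was 4.96 for MAP1LC3C and -1.15 for BECN1 on the log2 scale, and these differences were not tested because they led to the choice of the genes.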

How the results depend on the processing

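Of the values of the 10 genes under up to 21 alternatives in 3 comparisons, 581 kept their direction and side of the threshold, 18 lost a call, 11 gained one, 5 untested values moved by more than 1 SD and 14 changed sign. MAP1LC3C was not among the genes tested when siGOLM1-2 and control were fitted alone. The cause of these changes was not tested. Every change of sign was in a value not called for siGOLM1-2 against control: against control replicates 3 and 4 alone MAP1LC3A was at -0.162, GABARAPL1 at -0.128 and WIPI1 at -0.202, and against replicates 1 and 2 alone GABARAP was at 0.132. Without a filter GABARAPL1 was at -0.003, and with library totals GABARAP was at 0.005. Leaving out 1 library gave -0.157 to 0.051 for GABARAP, -0.13 to 0.073 for GABARAPL1, -0.011 to 0.056 for GABARAPL2 and -0.027 to 0.184 for WIPI1.

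The number of the 8 genes called with siGOLM1-2, 1 in the report, was 2 with library totals, 2 with only the compared groups fitted and 2 against control replicates 3 and 4 alone, and 1 to 2 without each library in turn. Of all genes tested, 7885 were called in the report, and 7915, 8236 and 7110 under the first of these settings in turn. Without each library in turn, 6904 to 8329 were called. Library totals moved the median of all genes by -0.13 for siGOLM1-1 against siGOLM1-2, with 3564 calls higher and 5957 lower against 4887 and 4654; for siGOLM1-1 against siGOLM1-2 MAP1LC3B was then at 0.14 (adjusted p = 0.155) and GABARAPL2 at 0.07 (adjusted p = 0.391). For siGOLM1-2 against control they gave 59.2% of calls higher, against 48.4%, and MAP1LC3B was called at 0.26 (adjusted p = 0.016). With only the compared groups fitted, ULK1 was called lower with siGOLM1-2 (-0.31, adjusted p = 0.0329) and MAP1LC3B was not called between the siRNAs (0.24, adjusted p = 0.0509). With the longest transcript as length MAP1LC3B held 32.2% of the family with siGOLM1-1, 35% with siGOLM1-2 and 32.7% in the control, and GABARAPL2 29.1% with siGOLM1-2. Over all genes tested, correlations of same-numbered deviations ran from -0.176 to 0.325, and 4 of 12 libraries correlated best with their own number. These values cannot decide whether libraries were paired by replicate number. With the replicate block 8, 2 and 6 of the 8 genes were called with siGOLM1-1 against control, siGOLM1-2 against control and siGOLM1-1 against siGOLM1-2, GABARAPL1 was at -0.006 with siGOLM1-2, and MAP1LC3A with siGOLM1-1 (0.48, adjusted p = 0.0364) and ULK1 with siGOLM1-2 (-0.29, adjusted p = 0.0442) gained calls. Of all genes tested, the block called 8389 with siGOLM1-1 and 7929 with siGOLM1-2 against control, where 8333 and 7885 were called without it. For siGOLM1-1 against control, the SE of MAP1LC3A was 0.169 with the block and 0.278 without, and that of GABARAPL2 0.073 and 0.072. Levels of MAP1LC3C with siGOLM1-2 rest on 2 to 5 reads per library.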
